A study of Mus musculus with 40 samples.

Results

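Cytosolic ribosomal protein genes were followed across adult mouse ventral tegmental area, a part of the midbrain known for its dopamine neurons. The genes were taken by symbol: Rpl or Rps followed by a number, with an optional a, x or l, together with Rplp0, Rplp1, Rplp2 and Rpsa, and with symbols that carry -ps or begin with Gm left out. That gave 83 of the 55471 genes in the count table: 48 of the large subunit, 32 of the small subunit and the 3 genes of the stalk. The rule also took Rpl32l, Rpl6l and Rps4l, which the annotation calls processed pseudogenes. Messenger RNA was sequenced from 40 tissue punches, in 8 groups of 5 libraries. Mice were of the strains C57/Bl6 (C57 below) and DBA, male or female. In repeated cross fostering (RCF), a litter was given to a new adoptive mother on each day from postnatal day 1 to 4, and the controls were unhandled. The groups were therefore C57 RCF males and C57 control males, C57 RCF females and C57 control females, DBA RCF males and DBA control males, and DBA RCF females and DBA control females. Neither the animal nor the litter behind a library is labelled, and each p-value therefore reflects variation among the libraries, which may be partly technical. In tissue punches, fewer cells of a type and less RNA per cell cannot be told apart.

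Each cytosolic ribosome joins a small subunit, which decodes the messenger RNA, to a large subunit, which forms the peptide bonds, and each protein of the set enters a mature ribosome once, apart from the stalk proteins. Ribosomal protein genes are among the most evenly expressed genes of mammalian cells, and their messenger RNAs open with a C followed by a run of pyrimidines, the TOP motif, through which mTOR signalling and the protein Larp1 control how strongly they are translated. In neurons, ribosomal protein messages are also carried into axons and dendrites. Most of these genes have many processed pseudogenes, intronless copies that arose by retrotransposition, so a read can match both gene and copy.

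The starts of the genes are shown first, because the TOP motif lies at the start of the messenger RNA. RefSeq promoters on GRCm38.p6, from 250 bases before to 50 bases after a start, were found for 61 of the 83 genes. A C followed by pyrimidines for a run of 8 or more bases, on the gene's strand and within 50 bases either side of the start, was in 52 of 61 (85.3%), against 31.99% of 27025 genes with a promoter. Such a run need not open the messenger RNA, so these are not counts of TOP motifs. The windows printed here run from 30 bases before to 25 bases after the start of Rps6 (chr4:86857343-86857397, minus strand), Rpl28 (chr7:4792935-4792989, plus), Rpl27a (chr7:109519165-109519219, plus), Rpl35 (chr2:39005107-39005161, minus), Rplp2 (chr7:141447621-141447675, plus) and Rps15a (chr7:118116123-118116177, minus). Capitals mark the longest such run, which was 20 bases long in Rpl27a and 9 in Rplp2. In Rps15a it lies wholly before the annotated start. These genes were picked after their windows were seen. For Rpl10, Rps2, Rpl4 and Rpl39 the longest run lay outside such a window, and Rps3 and Rps4x had none over 5 bases.
Rps6: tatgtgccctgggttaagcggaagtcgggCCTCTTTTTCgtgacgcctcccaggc
Rpl28: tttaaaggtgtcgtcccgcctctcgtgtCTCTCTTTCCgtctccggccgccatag
Rpl27a: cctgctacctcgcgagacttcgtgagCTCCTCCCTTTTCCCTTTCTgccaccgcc
Rpl35: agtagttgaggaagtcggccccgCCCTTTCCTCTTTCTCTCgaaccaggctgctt
Rplp2: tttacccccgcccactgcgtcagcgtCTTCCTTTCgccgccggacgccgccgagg
Rps15a: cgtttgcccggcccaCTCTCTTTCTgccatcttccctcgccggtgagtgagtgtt

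Over the whole promoter window and both strands, CCGGAAG, letters bound by factors of the ETS family, was in 25 of 61 promoters (41.0%) against 9.93% of the 27025. TATAAA, the core of the TATA box, was in 7 (11.5%) against 15.7%. AAGATGGC, letters bound by Yy1, was in 5 (8.20%) against 3.19%. These matches are counts of letters in a window and say nothing of binding.

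Total counts ran from 16913124 to 28179071 per library, and 80 of the 83 genes passed the filter on low counts. Rpl6l, Rpl10l and Rpl39l did not pass. Values are CPM, read counts divided by library size after TMM scaling, unless a percent is given, and tests are edgeR quasi-likelihood tests over 18441 genes with Benjamini-Hochberg adjustment and a threshold of 0.05. Tissue content differed between punches: Th, the dopamine synthesis enzyme gene, ran from 0.725 to 1644 CPM (median 40.1), with 3 libraries under 10 CPM. Slc6a3, another dopamine neuron marker, ran from 0.460 to 2959 CPM (median 35.7), and the cortical marker Slc17a7 from 2.92 to 1312 CPM. Of 8 cortical and hippocampal neuron markers, the mean log2(CPM + 1) reached 6.46 in C57 control males and 6.71 in DBA control females, against group medians of 2.09 to 2.85. Of 8 hindbrain markers it reached 4.01 in C57 RCF females, against group medians of 0.182 to 0.404. The 4 libraries that stood apart in this way were C57 RCF female replicate 4, C57 control male replicates 1 and 5 and DBA control female replicate 3, and the 3 with Th under 10 CPM were among them. C57 RCF female replicate 5 and C57 control male replicate 3 also held hindbrain markers, at 2.92 and 1.51 on that scale, with Th at 1259 and 835 CPM, and are left out with the first 4 in counts given without 6 libraries. C57 RCF male replicate 5, with cortical and hippocampal markers at 3.85 and Th at 12.6 CPM, was kept in the fits without 4 and without 6 libraries. That library had the lowest Slc6a3 of the 40, and DBA control male replicate 3, which had the highest, was kept as well. The mean of 8 hypothalamus markers ran from 0.835 to 4.65, with group medians of 1.48 to 4.07. Leaving out 4 or 6 libraries therefore did not even out tissue content. The part of tissue content in the results was not tested. The library labelled C57 control male replicate 5 also went against its strain label: over 63 genes that DBA libraries express at least 8-fold above C57 libraries, its median value lay 25.4% of the way to the DBA mean, while each of the other 39 libraries lay between -2.06% and 0.789% of the way to the other strain.

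The ribosomal protein genes together held 0.764% to 1.09% of the counts of a library, with a median of 0.940%. Divided by transcript length, levels of the tested genes ran from 0.458 to 518 CPM per kilobase, with a median of 154. On that scale the highest were Rps15, at 518 CPM per kilobase, Rps27 at 399.9, Rps24 at 373, Rpl41 at 362.5 and Rpl23a at 339.9. Rps24 is one of the genes mutated in Diamond-Blackfan anaemia, and Rpl41 encodes the shortest of the ribosomal proteins. Rpl4, which encodes a protein of the exit tunnel, had the highest mean count and ranked 7th per kilobase, at 317. The stalk genes, whose proteins recruit the translation factors, were at 273 (Rplp2), 262 (Rplp1) and 79.0 CPM per kilobase (Rplp0). Rps6, whose protein is phosphorylated by the S6 kinases below mTOR, was at 185, and Rps27a, which encodes ubiquitin fused to a small-subunit protein, at 215. Rpsa was at 141 and Rpl22, which encodes an RNA-binding protein with the paralogue Rpl22l1, at 123. The X-linked gene Rpl36a was at 122.7.

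At the other end of the range stood 2 kinds of gene. Paralogues known for other tissues or states were low: Rpl3l, known from heart and skeletal muscle, had 0 to 24 counts per library, a level of 0.458 CPM per kilobase, where its partner Rpl3 had 3338 to 8127 counts and 173. Rpl39l, known from testis, had 0 to 9 counts, with a count in 20 of the 40 libraries, against 18.2 CPM per kilobase for its partner Rpl39. Rpl10l, also known from testis, had at most 1 count, in 4 libraries, against 172 CPM per kilobase for Rpl10. Rps27l, a p53 target in human and mouse cells, was at 12.8 CPM per kilobase beside 399.9 for Rps27, and the pseudogene Rps4l at 18.3 beside 164 for Rps4x.

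Low values also occurred for genes with no such restriction. Rpl24 had 4 to 33 counts per library and 1.13 CPM per kilobase, Rps10 had 23 to 87 counts and 4.39, and Rpl13a had 219 to 392 counts and 12.1. The pseudogenes Rpl32l and Rpl6l were at 0.934 and 0.0874 CPM per kilobase. Of the 75-base windows of each transcript, the length of a read, a share of 0% to 98.5% (median 50.3%) was found unchanged in another annotated gene. It was 80.9% for Rpl24, 90.1% for Rps10 and 56.3% for Rpl13a, but also 98.5% for Rps27, the second highest gene. Tested genes with over 75% of windows shared had a median of 173 CPM per kilobase (19 genes), those with 25% to 75% had 154 (46 genes) and those under 25% had 123 (15 genes). How reads with several matches were counted is not given in the sources used here, so the level of a gene with a high share is uncertain.

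Most of the genes were high or low in the same libraries. The counts of higher and lower genes given below are therefore not counts of independent results. Of the 80 tested genes, 1 lay above its own 40-library mean in DBA RCF male replicate 3, and 77 did in C57 control female replicate 4. DBA RCF male replicate 2, with 4, and DBA control male replicate 2, with 5, were also low. C57 control male replicate 5, with 74, and C57 control female replicate 5, with 73, were high. The spread of a gene within groups (pooled SD of log2 values) had a median of 0.133 over the 80 genes. For the 72 of them with a mean of 30 CPM or more it was 0.130, against 0.157 for all 6599 tested genes at that level. The tightest was Rpl4 at 0.0781, and of the genes with a mean of 30 CPM or more the widest was Rps27 at 0.244.

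**Figure D1:**
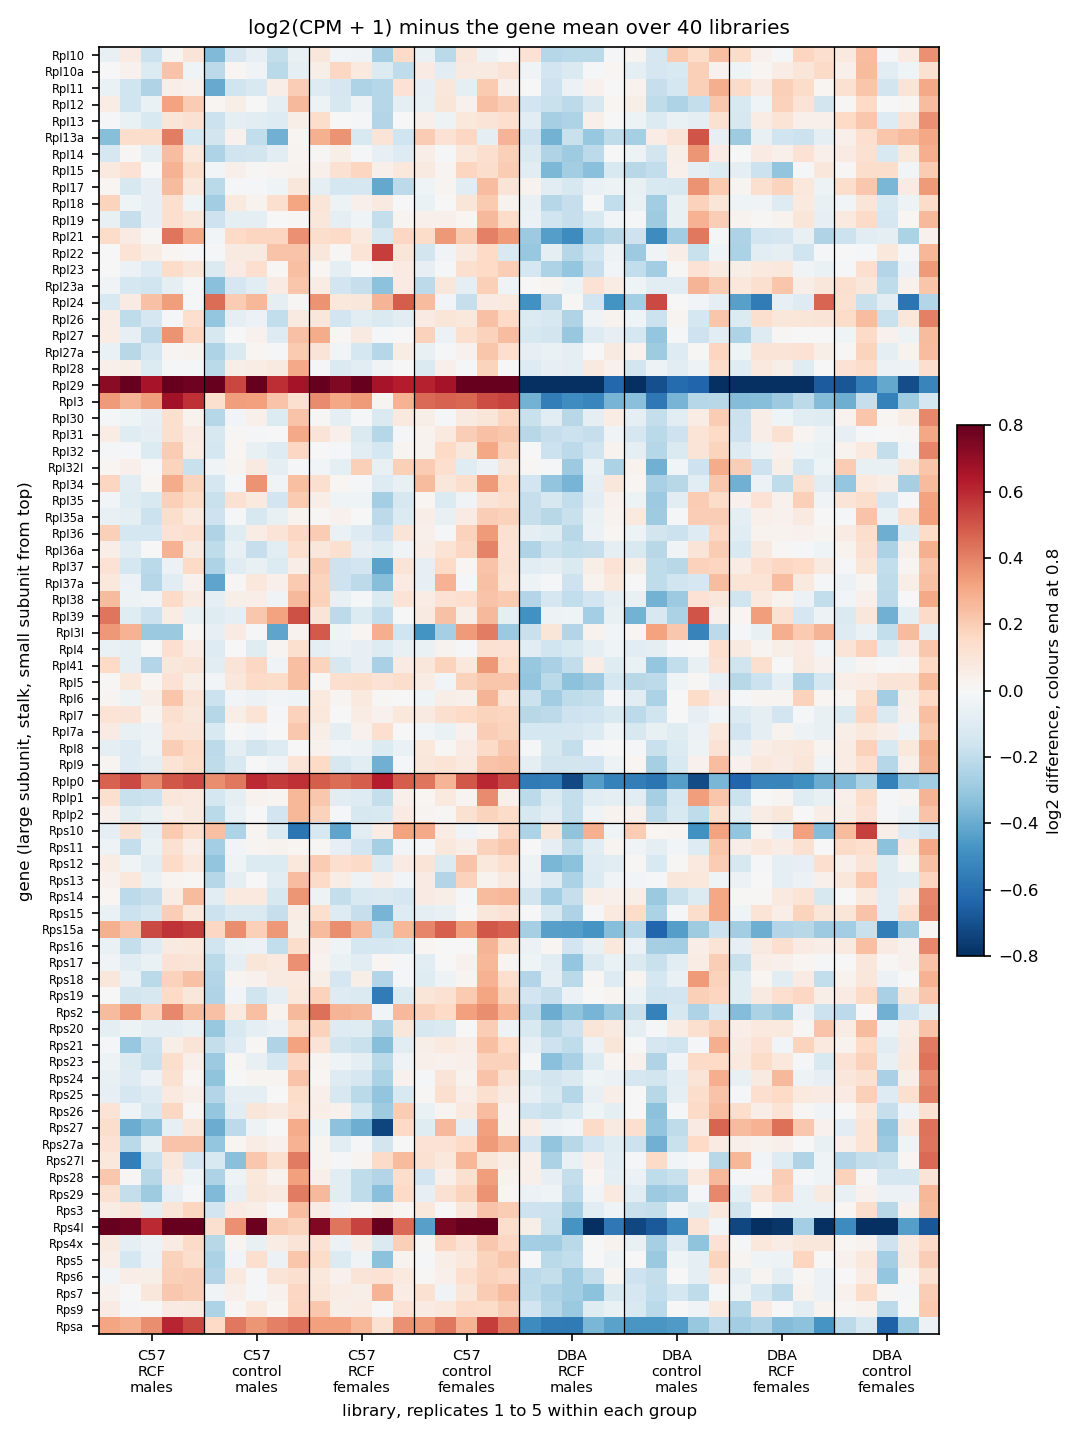
Level of 78 of the 80 tested ribosomal protein genes (rows: large subunit, stalk and small subunit) in each of the 40 libraries (columns, 5 per group), as log2(CPM + 1) minus the gene's mean over the libraries. Whole columns are red or blue across most genes, such as DBA RCF male replicate 3, where 1 of 80 genes lay above its mean, while the rows of Rpl29, Rpl3, Rplp0, Rps15a, Rps2, Rps4l and Rpsa divide at the border between C57 and DBA.

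As a share of all counts, the genes gave 0.965 ± 0.0746% in C57 RCF males and 0.918 ± 0.0937% in C57 control males (SD, n = 5 each). C57 RCF females had 0.920 ± 0.091% and C57 control females 1.03 ± 0.0428%. DBA RCF males had 0.857 ± 0.0477% and DBA control males 0.923 ± 0.114%. DBA RCF females had 0.956 ± 0.0307% and DBA control females 0.946 ± 0.111%. The C57 RCF females lay between 0.771% and 1.02% and the C57 control females between 0.982% and 1.09%, so the groups overlapped, as did the other 3 pairs.

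**Figure D2:**
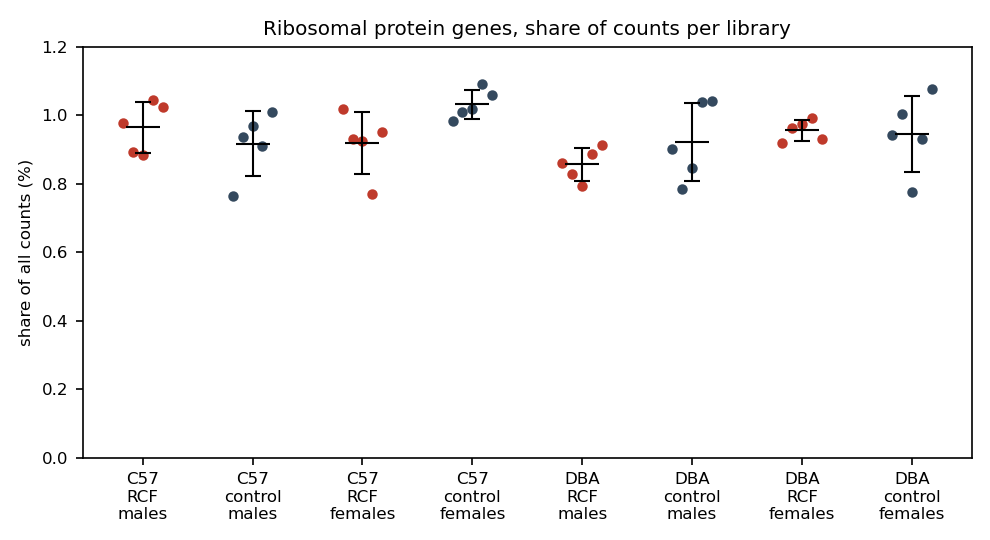
Share of each library's counts that came from the 83 ribosomal protein genes, in percent, by group. Points are libraries, bars the mean and SD of 5, and in each strain and sex the RCF and control libraries overlap.

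The first comparison asked whether fostering in the first days of life left a difference in the adult tissue. No ribosomal protein gene passed the threshold in any of the 4 strata. In C57 males, 57 of the 80 were higher and 23 lower in RCF libraries, with a median log2 fold change of 0.03 (median of all genes -0.02), and 0 were called where 0.0108% of all genes were. At an unadjusted p under 0.05 there were 4 of 80, all higher, where 7.07% of all genes passed. The 4 with the smallest p were Rpl3 at 0.22 (SE 0.08, adjusted p = 0.637), Rps4l at 0.51, Rps15a at 0.22 and Rpl8 at 0.14, the last encoding a protein beside the peptidyl transferase centre. On the lower side stood Rps27l at -0.24, Rpl5 at -0.07, Rps29 at -0.13 and Rpl28 at -0.07. Without C57 control male replicate 1, one of the libraries high in cortical markers, 34 were higher and 46 lower, with a median of -0.02. Without C57 control male replicate 5, 70 were higher and 10 lower, without RCF replicate 4 the counts were 41 and 39, and without RCF replicate 5 they were 45 and 35. Without RCF replicate 2 or 3 the median was 0.06 and 0.05. The counts were 59 and 21 without the 4 libraries that stood apart.

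In C57 females, 9 of the 80 genes were higher and 71 lower in RCF libraries, with a median log2 fold change of -0.12 against 0.01 over all genes. The count of called genes was 0, where 0.00542% of all genes passed, and 1 higher and 19 lower had an unadjusted p under 0.05, where 12.5% of all genes did. DESeq2 called 1 gene. Rps19, the gene most often mutated in Diamond-Blackfan anaemia, had 71.3, 58.1, 57.7, 42.2 and 58.1 CPM in RCF females, against 66.9, 68.2, 72.7, 78.3 and 71.1 CPM in control females. The groups overlapped through RCF replicate 1, and the lowest value was that of RCF replicate 4. On the log2 scale the difference was -0.31 (SE 0.10, adjusted p = 0.228). Rpl3 was at -0.22 and Rpl9 at -0.23. Rpl22, at 0.20 (SE 0.08, adjusted p = 0.335), had the smallest p of the higher genes, and had 85.5 CPM in RCF replicate 4, one of the libraries that stood apart, where the other RCF females had 58.5 to 62.7 CPM. Rpl24 at 0.46, Rpl3l at 0.44 and Rplp0 at 0.04 followed. Without the 4 libraries that stood apart, 12 were higher and 68 lower, with a median of -0.09, and without 6 the counts were the same, with a median of -0.10. Median levels of tissue markers also stood apart in the same groups, though the ranges overlapped. The mean log2(CPM + 1) of 12 dopamine neuron markers ran from 2.63 to 8.20 (median 7.83) in RCF females, against 3.47 to 8.13 (median 4.25) in control females. That of 8 hypothalamus markers ran from 0.835 to 1.81 (median 1.48) in RCF females, against 1.28 to 4.58 (median 2.68) in control females, and that of 8 astrocyte markers from 8.50 to 8.79 (median 8.58) in RCF females, against 7.95 to 8.55 (median 8.11) in control females. Their part in the result was not tested.

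DBA males had 4 genes higher and 76 lower in RCF libraries, with a median log2 fold change of -0.09 against -0.01 over all genes. None was called, where 0.0163% of all genes were, and 9, all lower, had an unadjusted p under 0.05, where 6.72% of all genes did. Rpl14, a large-subunit gene, had 121, 111, 107, 113 and 131 CPM in RCF males, against 127, 118, 135, 167 and 137 CPM in control males. The groups overlapped, and the highest value was that of control replicate 4, the library with the lowest total count. On the log2 scale the difference was -0.23 (SE 0.08, adjusted p = 0.630). Rps12 was at -0.22, Rpl13a at -0.36 and Rpl5 at -0.16. The 4 higher genes, Rps16 at 0.05, Rpl37a at 0.02, Rpl27a at 0.01 and Rpl28 at 0.01, were all within 1 SE of 0. Without DBA control male replicate 5, 20 genes were higher and 60 lower, with a median of -0.04. The counts were 2 and 78 in the fit without the 4 libraries that stood apart, none of which is in these groups. Tissue markers differed within and between these groups all the same. Medians of the hypothalamus markers were 2.46 in RCF and 3.92 in control males, with overlap. The dopamine neuron markers ran from 3.50 to 5.09 in RCF males and from 3.33 to 8.77 in control males, highest in control replicate 3. Their part in the result was not tested.

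In DBA females, 14 genes were higher and 66 lower in RCF libraries, with a median log2 fold change of -0.06 against -0.01 over all genes. The called count was 0, where 0.0163% of all genes passed, and 10, all lower, had an unadjusted p under 0.05, where 12.3% of all genes did. Rpl5, which with Rpl11 carries the 5S ribosomal RNA and can bind the p53 regulator Mdm2, had 47.7, 49.5, 53.1, 46.9 and 50.6 CPM in RCF females, against 58.1, 58.2, 59.98, 60.3 and 66.9 CPM in control females. All 5 RCF libraries lay below all 5 control libraries. Rpl5 was named for its small p, and the share of all genes separated in this way was not counted. The log2 fold change was -0.29 (SE 0.06, adjusted p = 0.0752), and DESeq2 gave -0.28 with an adjusted p of 0.00741. Rpl29 was at -0.32 (adjusted p = 0.227), Rpl13a at -0.37 and Rpl15 at -0.19. On the higher side were Rps27 at 0.19, Rpl37 at 0.09, Rpl37a at 0.09 and Rpl39 at 0.13. Without control replicate 5, 40 genes were higher and 40 lower. Without control replicate 3, one of the libraries that stood apart, 9 were higher and 71 lower, with a median of -0.10, and without RCF replicate 1 the counts were 18 and 62, with a median of -0.04. Leaving out the 4 libraries gave 10 higher and 70 lower, with a median of -0.10. With library totals in place of TMM factors 45 were higher and 35 lower. Tissue markers differed here too. The mean log2(CPM + 1) of 8 general neuron markers ran from 8.88 to 9.14 in RCF females, against 9.145 to 9.455 in control females, with no overlap. Medians of the hypothalamus markers were 4.07 in RCF and 2.86 in control females, with overlap, and those of the dopamine neuron markers 4.63 and 4.71. Their part in the result, that of Rpl5 included, was not tested.

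Averaged over the 4 strata, 3 genes were higher (Rps4l, Rpl3l and Rpl10a, at 0.13, 0.28 and 0.01) and 77 lower in RCF libraries, where 53.2% of all genes were lower. The median log2 fold change was -0.06, against -0.01 over all genes. Of the 80, 0 were called, where 0.0217% of all genes were, and 13, all lower, had an unadjusted p under 0.05, where 6.95% of all genes did. Among the smallest p values were those of Rpl5 at -0.14 (SE 0.03, adjusted p = 0.159), Rplp1 at -0.12 and Rpl30 at -0.10. DESeq2 called Rpl5 (adjusted p = 0.0166). In the strata, which share their libraries with this mean, Rpl5 was at -0.07 in C57 males, -0.03 in C57 females, -0.16 in DBA males and -0.29 in DBA females. By kind of gene, 43 of 45 large-subunit, 31 of 32 small-subunit and 3 of 3 stalk genes were lower on average, and the large and small subunits both had a median of -0.06. These genes vary together across the same libraries, so the kinds are not separate results. Without the 4 libraries that stood apart the count stayed at 3 higher and 77 lower, and without 6 it was 4 and 76.

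Tests of the difference between RCF effects gave 0 calls among the 80 genes. Between strains (the effect in DBA minus that in C57, where 0.0108% of all genes were called), the smallest p were those of Rpl13a at -0.45 (SE 0.13, adjusted p = 0.763), Rpl29 at -0.27 and Rpl15 at -0.20. Between sexes (females minus males, where 0.00542% of all genes were called), Rpl8 at -0.16 (SE 0.07, adjusted p = 0.531), Rps15a at -0.22 and Rps16 at -0.18 came first.

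**Figure D3:**
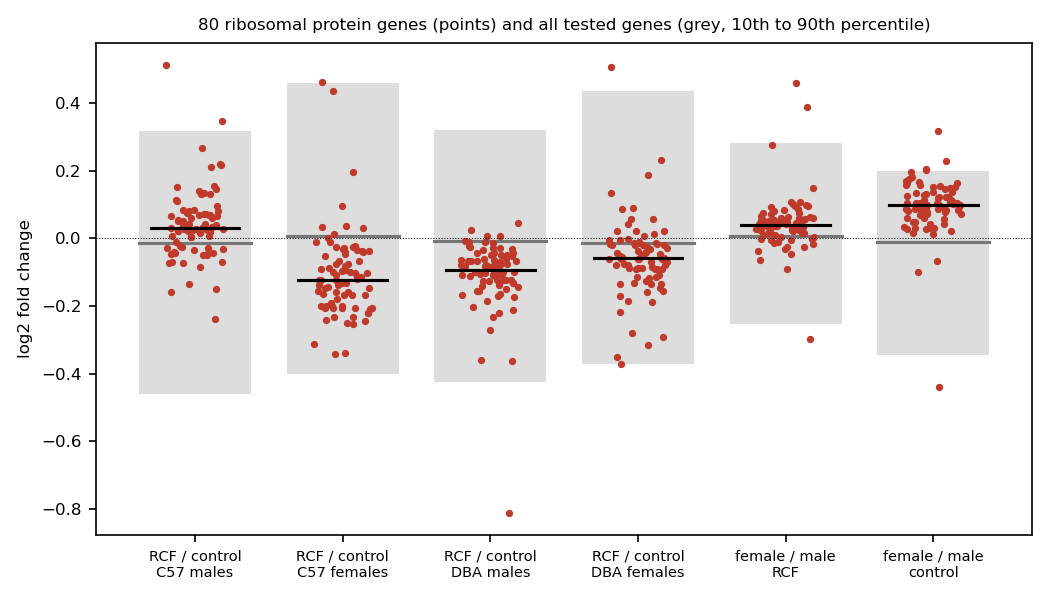
Log2 fold changes of the 80 tested ribosomal protein genes (red points, black line at their median) for RCF against control in each stratum and for females against males in RCF and control mice, beside the 10th to 90th percentile and the median of all 18441 tested genes (grey). The medians lie at 0.03, -0.12, -0.09 and -0.06 for RCF and at 0.04 and 0.10 for sex.

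Between strains, some ribosomal protein genes passed the threshold. Among control mice, 9 of 80 genes were lower and 1 higher in DBA, where 8.13% of all genes were called lower and 7.88% higher. Among RCF mice, 21 were lower and 1 higher, where 12.4% of all genes were called lower and 11.3% higher. The 9 lower in control mice were Rpl29, Rplp0, Rpl3, Rpsa, Rps15a, Rps2, Rps4l, Rpl21 and Rpl5. All 9 were among the 21 lower in RCF mice (42.9% of them), which shared no library with the control comparison. With library totals in place of TMM factors the split in RCF mice was 15 lower and 3 higher. Without C57 control male replicate 1, 14 were lower and 1 higher in control mice. Without the 4 libraries that stood apart, 8 were lower and 3 higher in control mice and 25 lower and 2 higher in RCF mice, and without 6, 8 and 2 in control mice and 20 and 4 in RCF mice. The shares of all genes called in these other fits are not given here, so changes in these counts cannot be read as particular to the set. Levels of some markers also differed between strains, without a test. The mean log2(CPM + 1) of 6 erythroid markers ran from 1.91 to 2.42 in DBA RCF males and 1.84 to 2.26 in DBA RCF females, against 2.76 to 3.93 in C57 RCF males and 2.67 to 3.58 in C57 RCF females, with no overlap, and in control mice the strains did not overlap either. Medians of the dopamine neuron markers were 4.11 and 4.63 in DBA RCF males and females, against 6.54 and 7.83 in C57 RCF males and females. In control mice they were 3.465 and 4.705 in DBA males and females, against 5.798 and 4.253 in C57, so the order turned in females. For the dopamine neuron markers the strains overlapped in each sex, among RCF and among control mice. The part of these markers in the strain differences was not tested. Whether the counts in RCF and control mice differ was not tested beyond the interaction above, in which no ribosomal protein gene passed.

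Levels of 4 genes did not overlap between the 20 DBA and the 20 C57 libraries: Rpl29, Rplp0, Rpl3 and Rpsa, which is 5% of the 80 where 1.79% of all tested genes did not overlap. Rpl29, which encodes a large-subunit protein first described as a heparin-binding protein of the cell surface, ran from 19.9 to 32.8 CPM (median 25.5) in DBA, against 64.1 to 90.8 CPM (median 75.0) in C57. In log2 units the difference was -1.42 (SE 0.06, adjusted p = 2.13e-19) in control mice and -1.69 (SE 0.06, adjusted p = 1.61e-21) in RCF mice. Every DBA library held under 33 CPM and every C57 library over 64.

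Rplp0, the stalk base on which the Rplp1 and Rplp2 dimers sit and a common reference gene in quantitative PCR, ran from 61.0 to 84.8 CPM (median 69.8) in DBA, against 122.5 to 156.5 CPM (median 142.5) in C57. The log2 fold changes were -0.93 (SE 0.05, adjusted p = 1.80e-17) in control and -1.04 (SE 0.05, adjusted p = 7.44e-19) in RCF mice. The other 2 stalk genes were not called: Rplp1 ran from 108 to 164 CPM in DBA, against 114 to 169 CPM in C57, and Rplp2 from 99.1 to 134.5 CPM in DBA, against 98.5 to 138 CPM in C57.

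Rpl3, whose protein reaches into the peptidyl transferase centre, ran from 152 to 205 CPM (median 178) in DBA, against 229 to 361 CPM (median 286) in C57. The log2 fold changes were -0.69 (SE 0.06, adjusted p = 5.48e-12) in control mice and -0.75 (SE 0.06, adjusted p = 4.89e-13) in RCF mice. Rpsa, which encodes a small-subunit protein also known as a laminin receptor, ran from 139 to 210.4 CPM (median 169.6) in DBA, against 237 to 332 CPM (median 279) in C57, with log2 fold changes of -0.70 (SE 0.06, adjusted p = 1.09e-11) in control and -0.77 (SE 0.06, adjusted p = 8.11e-13) in RCF mice.

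**Figure D4:**
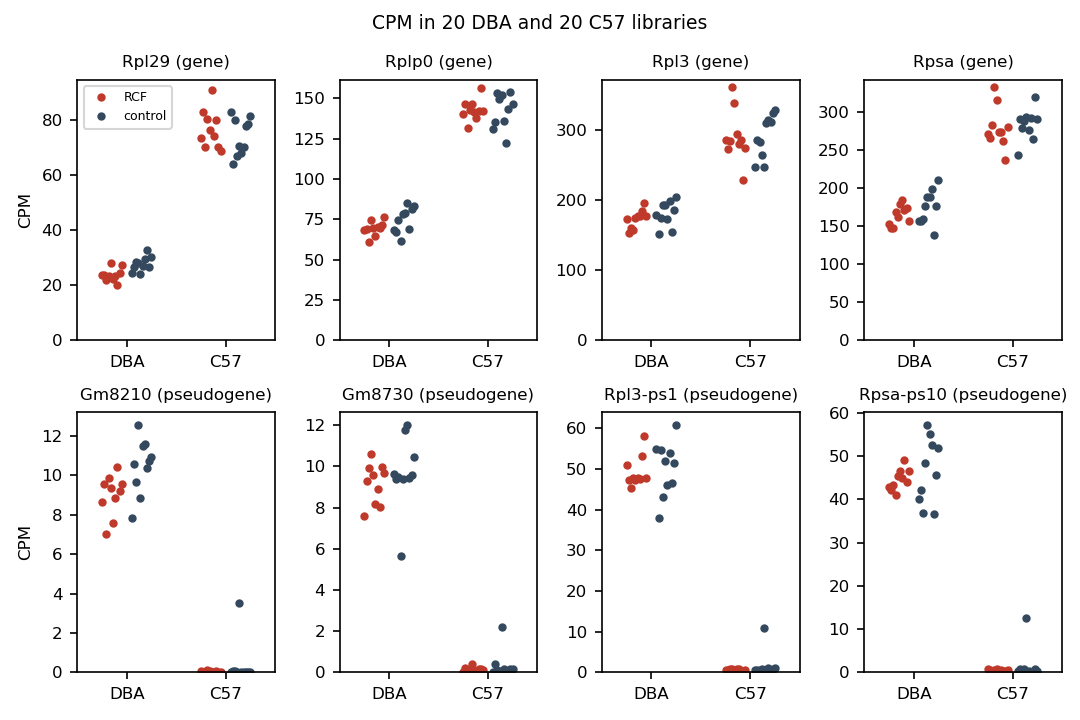
CPM of Rpl29, Rplp0, Rpl3 and Rpsa (top) and of a near-identical processed pseudogene of each (bottom) in the 20 DBA and 20 C57 libraries, RCF in red and control in dark blue. Each gene is lower in every DBA library, each pseudogene is higher, and C57 control male replicate 5 is the C57 point that stands above the rest in all 4 pseudogene panels.

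For each of these 4 genes an annotated near-identical pseudogene was higher in every DBA library than in any C57 library. Rpl3-ps1 (chrX:13202571-13203780, plus strand, GRCm38) differs from the Rpl3 transcript at 2 of 1210 aligned bases. It ran from 37.9 to 61.0 CPM (median 47.8) in DBA, against 0.421 to 10.8 CPM (median 0.644) in C57. Rpsa-ps10 (chr3:150072658-150073542, minus) differs from Rpsa at 6 of 885 bases and ran from 36.6 to 57.3 CPM (median 45.2) in DBA, against 0.207 to 12.6 CPM (median 0.447) in C57. Both were past the threshold in control mice, with log2 fold changes of 5.09 (SE 0.36, adjusted p = 2.73e-13) for Rpl3-ps1 and 5.41 (SE 0.42, adjusted p = 2.67e-12) for Rpsa-ps10.

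Gm8210 (chr1:43189156-43189638, plus), which differs from Rpl29 at 3 of 483 bases, ran from 7.04 to 12.6 CPM (median 9.62) in DBA, against 0 to 3.53 CPM (median 0) in C57. Gm8730 (chr8:102864845-102865798, minus), which differs from Rplp0 at 12 of 954 bases, ran from 5.63 to 12.02 CPM (median 9.53) in DBA, against 0 to 2.18 CPM (median 0.145) in C57. In all 4 pseudogenes the highest C57 value was that of the library labelled C57 control male replicate 5. Without it, the C57 maxima were 1.08 CPM for Rpl3-ps1, 0.851 for Rpsa-ps10, 0.136 for Gm8210 and 0.418 for Gm8730.

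Stretches of 60 coding bases show how little separates gene and pseudogene within a read of 75 bases. For each pair the stretch was picked for holding the most differences, so it is not a typical one. Transcript sequences are from GENCODE M21, capitals mark the bases that differ, and positions count from 1 at the first base of the start codon: C57A in Rpl3 (bases 27 to 86), T210C and C219T in Rpsa (185 to 244), C72A in Rpl29 (42 to 101) and A390G, A393G and A447T in Rplp0 (389 to 448), each with the base of the gene first.
Rpl3: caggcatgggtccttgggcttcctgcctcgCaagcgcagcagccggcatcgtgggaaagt
Rpl3-ps1: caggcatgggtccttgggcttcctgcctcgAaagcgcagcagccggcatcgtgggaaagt
Rpsa: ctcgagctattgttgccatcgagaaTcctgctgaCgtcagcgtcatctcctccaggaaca
Rpsa-ps10: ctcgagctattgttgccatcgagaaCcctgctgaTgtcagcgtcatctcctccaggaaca
Rpl29: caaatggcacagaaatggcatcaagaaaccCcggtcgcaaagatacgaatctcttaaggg
Gm8210: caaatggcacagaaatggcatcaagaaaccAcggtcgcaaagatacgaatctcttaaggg
Rplp0: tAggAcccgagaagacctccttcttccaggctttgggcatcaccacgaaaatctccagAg
Gm8730: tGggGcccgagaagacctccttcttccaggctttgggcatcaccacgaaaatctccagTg

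Set against each other, the mean of Rpl3 was lower by 114 CPM in DBA and that of Rpl3-ps1 higher by 48.6 CPM, which is 42.4% of the gene's difference. The same share was 39.8% for Rpsa and Rpsa-ps10, 19.2% for Rpl29 and Gm8210 and 13.0% for Rplp0 and Gm8730. With the counts of all annotated near-identical pseudogenes added to the gene they match best (an alternative chosen after the data were seen), the log2 fold changes in control mice became -0.34 for Rpl3, -0.37 for Rpsa, -0.94 for Rpl29 and -0.73 for Rplp0. In RCF mice they became -0.39, -0.42, -1.21 and -0.83, and all 8 values stayed past the threshold. Without C57 control male replicate 5 the values in control mice were -0.70 for Rpl3, -0.69 for Rpsa, -1.42 for Rpl29 and -0.93 for Rplp0. How the authors' counting assigned reads that match gene and pseudogene is not given in the sources used here, and its part in these differences was not tested.

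Other genes lower in DBA had smaller differences. Rps15a ran from 75.0 to 118 CPM (median 95.7) in DBA, against 102 to 175 CPM (median 148) in C57, with log2 fold changes of -0.63 in control mice (SE 0.07, adjusted p = 4.00e-09) and -0.67 in RCF mice (SE 0.07, adjusted p = 1.03e-09). Rps2, whose protein lines the entry of the messenger RNA channel, ran from 72.0 to 105 CPM (median 89.4) in DBA, against 104 to 143 CPM (median 126) in C57, at -0.42 in control and -0.54 in RCF mice. The lowest C57 value of both was that of C57 RCF female replicate 4. Without the 4 libraries that stood apart, Rps15a and Rps2 joined the 4 genes with no overlap, 7.5% of the 80 where 2.3% of all genes did not overlap.

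The pseudogene Rps4l ran from 7.03 to 16.6 CPM (median 9.69) in DBA, against 11.2 to 33.7 CPM (median 25.1) in C57, at -1.03 in control and -1.37 in RCF mice. Its X-linked relative Rps4x was not called, with 127 to 176 CPM in DBA, against 137 to 185 CPM in C57. Rpl21 ran from 68.7 to 131 CPM (median 85.4) in DBA, against 89.7 to 132 CPM (median 109.6) in C57, at -0.33 in control and -0.40 in RCF mice. The highest DBA value of Rpl21 was that of DBA control male replicate 4. Its near-identical pseudogene Gm10095 was lower in DBA too, with 0 to 0.172 CPM, against 1.49 to 3.76 CPM in C57. Rpl5 ran from 44.4 to 66.9 CPM (median 50.6) in DBA, against 55.0 to 66.2 CPM (median 60.6) in C57, at -0.12 in control mice (adjusted p = 0.0375) and -0.30 in RCF mice (adjusted p = 9.48e-07).

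A further 12 lower genes were called in RCF mice and not in control mice, and none of them passed the interaction test. Among them Rps7 was at -0.27 (SE 0.04, adjusted p = 1.52e-05), Rpl15 at -0.27 (SE 0.05, adjusted p = 3.71e-05) and Rpl7 at -0.20 (SE 0.04, adjusted p = 0.000890). Rpl24, at -0.86, rested on 4 to 33 counts per library. Rpl13a was at -0.31, where control mice had 0.15, Rpl22 at -0.25, Rps6 at -0.19, Rpl27 at -0.19, Rps12 and Rps9 at -0.17, Rps3 at -0.15 and Rpl7a at -0.12. Rpl15 also has a near-identical pseudogene that was higher in DBA, Gm8420, with 1.27 to 10.1 CPM in DBA, against 0 to 0.567 CPM in C57. A pseudogene was also higher in DBA where the gene was not called: Rpl14-ps1, which matches Rpl14 at 98.9% of bases, had 3.07 to 5.36 CPM in DBA, against 0.728 to 1.88 CPM in C57 (1.54 in control mice, adjusted p = 1.36e-11), while Rpl14 was at 0.10 in control mice and -0.06 in RCF mice.

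One gene was higher in DBA in each comparison. Rpl10, an X-linked gene whose protein completes the large subunit late in its assembly, was at 0.23 on the log2 scale (SE 0.06, adjusted p = 0.00590) in control mice and 0.0027 (adjusted p = 0.981) in RCF mice, with 117 to 177 CPM (median 144) in DBA, against 107 to 152 CPM (median 132) in C57. Rps27, whose protein carries a zinc finger, was at 0.32 (SE 0.11, adjusted p = 0.0272) in RCF mice, with 109 to 188 CPM (median 143) in DBA, against 81.3 to 170.4 CPM (median 131) in C57. The groups overlapped for both. Among genes that were not called, the smallest p on the higher side in control mice were those of Rps15 at 0.17, Rps20 at 0.13, Rpl14 at 0.10, Rpl13a at 0.15 and Rpl11 at 0.10. In RCF mice Rpl23a was at 0.17, Rpl11 at 0.13, Rps25 at 0.09 and Rpl37a at 0.11.

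Calls near the threshold depended on single libraries. In control mice Rpl5 lost its call in 10 of the 20 fits that left out 1 library: C57 control male replicates 3, 4 and 5, C57 control female replicates 3, 4 and 5, DBA control male replicates 1 and 2 and DBA control female replicates 1 and 2, with an adjusted p of up to 0.0786. In RCF mice the adjusted p rose above the threshold, to at most 0.0819, for Rpl7a in 10 fits, Rpl24 in 7, Rps27 in 6, Rpl27 and Rps3 in 4 each and Rps12 in 2. For Rpl7a these left out C57 male replicate 1, 4 or 5, C57 female replicate 1, 4 or 5, DBA male replicate 1, 2 or 3 or DBA female replicate 1. For Rpl24 they left out C57 male replicate 3 or 4, C57 female replicate 5, DBA male replicate 1 or 5 or DBA female replicate 1 or 2, and for Rps27 C57 male replicate 2 or 3, C57 female replicate 3 or 4, DBA male replicate 4 or DBA female replicate 3. For Rpl27 they left out C57 male replicate 4, C57 female replicate 1, DBA male replicate 3 or DBA female replicate 1, for Rps3 C57 male replicate 2 or 5, DBA male replicate 3 or DBA female replicate 1, and for Rps12 DBA male replicate 2 or 3. The other called genes, Rpl10 in control mice among them, kept their calls in each of the 20 fits.

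**Figure D5:**
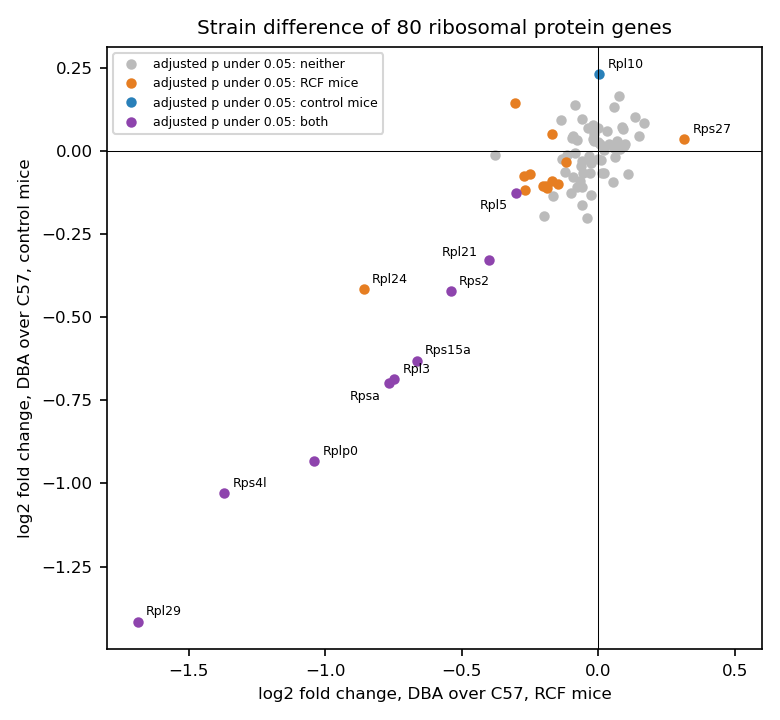
Log2 fold changes of DBA over C57 for the 80 tested ribosomal protein genes, in RCF mice (horizontal) and control mice (vertical). The 9 genes called in both sets lie below 0 on both axes, from Rpl5 at -0.30 and -0.12 to Rpl29 at -1.69 and -1.42.

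Between sexes, control mice had 77 of 80 genes higher in females, with a median log2 fold change of 0.10 against -0.01 over all genes. None was called, where 0.0922% of all genes were, and 26 had an unadjusted p under 0.05 where 10.3% of all genes did. These genes vary together across libraries, so the 26 are not independent. The smallest p values were those of Rpl8 at 0.18 (SE 0.05, adjusted p = 0.166), Rps16 at 0.20, Rps7 at 0.15, Rpl26 at 0.20, Rpl15 at 0.16 and Rpl13 at 0.17. Rpl8 had 269, 255, 266, 282 and 294 CPM in C57 control females and 264, 288, 233, 268.5 and 308 CPM in DBA control females, against 219, 240.5, 229, 236 and 253 CPM in C57 control males and 251, 224, 235, 246 and 275 CPM in DBA control males. The C57 females all lay above the C57 males, with 254.9 CPM as the lowest female and 253.4 CPM as the highest male value. In DBA the sexes overlapped. Rpl8 was named for its small p, and the share of all genes separated in this way was not counted. Without DBA control female replicate 3, one of the libraries that stood apart and the one with the lowest value, Rpl8 was called (0.20, adjusted p = 0.0499). The 3 genes lower in control females were Rpl24 at -0.44, Rps4l at -0.10 and Rpl39 at -0.07. Medians of 8 microglia markers were 4.88 in males and 4.48 in females of the C57 controls, against 4.45 and 4.59 in the DBA controls. Those of 8 general neuron markers were 9.32 and 8.98 in C57, against 8.99 and 9.24 in DBA, so both orders turned between strains. The part of tissue content in the sex differences was not tested.

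In RCF mice 65 of 80 genes were higher in females, with a median of 0.04 against 0.01 over all genes. Without C57 RCF male replicate 3, 59 were higher, with a median of 0.02, and without C57 RCF female replicate 1, 60, with a median of 0.03. Without the 4 libraries that stood apart 72 were higher, with a median of 0.06, and without 6, 69. None was called, where 0.0759% of all genes were, and none had an unadjusted p under 0.05, where 7.26% of all genes did. DESeq2 also called none in either set. The smallest p values on the higher side were those of Rps4x at 0.11 (SE 0.06, adjusted p = 0.699), Rps12 at 0.11, Rps7 at 0.08, Rpl6 at 0.09, Rps9 at 0.09 and Rps20 at 0.10. On the lower side were Rps4l at -0.30, Rps15a at -0.07, Rpl17 at -0.05, Rps10 at -0.09 and Rpl34 at -0.04. The 4 X-linked genes were not called either. Rps4x, whose human counterpart escapes X inactivation, was at 0.15 in control mice (adjusted p = 0.320) and 0.11 in RCF mice, Rpl36a at 0.16 and 0.05, Rpl10 at 0.08 and 0.10, and Rpl39 at -0.07 and 0.06. The control comparison shares its libraries with the RCF comparisons above.

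Genes that work with the set were counted in the same fit, without a test of any list. Of 10 cytosolic ribosomal proteins outside the symbol rule, 7 were tested and none was called in an RCF or sex comparison. Fau, which encodes a ubiquitin-like protein fused to a small-subunit protein, was higher in DBA, with 114 to 174 CPM (median 141) against 99.2 to 133 CPM (median 113) in C57 and log2 fold changes of 0.28 in control mice (adjusted p = 0.000770) and 0.33 in RCF mice (adjusted p = 9.64e-05). In all, 1 of the 7 was higher and 2 lower in control mice, where 7.88% and 8.13% of all genes were, and 1 was higher and 3 lower in RCF mice, where 11.3% and 12.4% were. The lower genes included Rps3a1 in both comparisons, at -0.15 and -0.20, and the scaffold gene Rack1 in RCF mice, at -0.15.

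Of 24 other TOP mRNA and translation factor genes, 23 were tested, and their counts are to be read against the same shares of all genes (7.88% higher and 8.13% lower in control mice, 11.3% and 12.4% in RCF mice). In control mice 1 was higher in DBA, Btf3 at 0.18, and 2 were lower, Eif3e at -0.47 (adjusted p = 4.69e-08) and Nap1l1 at -0.27. In RCF mice 1 was higher, Eif4b at 0.16, and 5 were lower: Eif3e at -0.55, Nap1l1 at -0.29, Tpt1 at -0.31, Eif4a1 at -0.25 and Eif3m at -0.18. Eif3e, a subunit of the initiation factor eIF3, ran from 33.3 to 56.3 CPM (median 41.8) in DBA, against 53.4 to 72.6 CPM (median 59.8) in C57. Between sexes Eif2s3x, an X-linked subunit of eIF2 that escapes X inactivation, was higher in females, at 0.63 in control mice (adjusted p = 1.80e-06) and 0.57 in RCF mice (adjusted p = 2.16e-05), and no other gene of the list was called between sexes. In RCF comparisons none was called, and over the 4 strata 3 of 23 were higher and 20 lower, with a median of -0.04.

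Ribosome biogenesis had 43 genes tested. Of these 2 were higher and 6 lower in DBA control mice, where 7.88% and 8.13% of all genes were, and 1 was higher and 6 lower in DBA RCF mice, where 11.3% and 12.4% were. Rrs1, needed for the 5S particle to join the large subunit, was at -0.43 (adjusted p = 1.19e-06) in control and -0.34 (adjusted p = 5.82e-05) in RCF mice, and nucleolin (Ncl) at -0.23 and -0.21. Tsr1, a late factor of the small subunit, was at 0.18 and 0.21. Of the others, those with the smallest p were Polr1a at -0.18, Nolc1 at -0.16 and Wdr43 at -0.18 in control mice, and Nop10 at -0.29, Pno1 at -0.29 and Utp3 at -0.17 in RCF mice. None was called for RCF or sex.

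Of 24 genes of mTOR and TOP mRNA control, all tested, Tsc1 was higher in DBA, at 0.14 in control and 0.21 in RCF mice, and Tsc2 lower, at -0.18 and -0.13. Their products form the complex that holds mTORC1 in check. In control mice these were the 1 higher and 1 lower call. In RCF mice 3 were higher and 4 lower, where 11.3% and 12.4% of all genes were, among them Rictor at 0.20, Larp4 at -0.24, Cnbp at -0.15 and Eif4e at -0.13. None was called for RCF or sex, and over the 4 strata the median for RCF was 0.03, with 13 of 24 higher.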

How the data were processed

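RNA from ventral tegmental area punches was made into mRNA libraries with the Universal Plus mRNA-Seq kit and sequenced as single-end 75-base reads, per the labels' protocols. The submitters' processing notes name bcl2fastq 2.20, cutadapt 1.11, FastQC and the build GRCm38 (mm10). Which aligner and counter were used, with what strand setting, and how reads with several matches were treated is not given in the sources used here. Whole-number read counts per Ensembl gene, not normalized, were deposited by the authors as 1 table of 40 libraries with 16913124 to 28179071 counts each.

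Symbols came from GENCODE M21. Counts were scaled with TMM factors (0.905 to 1.09), filtered with filterByExpr over the 8 groups and fitted with edgeR 4.0.16 (robust quasi-likelihood test, R 4.3.3) as 8 group means with 32 residual degrees of freedom. Over 18441 genes, p-values were Benjamini-Hochberg adjusted. The fit was tested on simulated data. Alternatives used DESeq2 1.42.0, limma 3.58.1 (voom), other factors, no filter, the compared libraries alone, pseudogene counts added to their gene (those of the same name, or 501 at 95% identity or more over at least 50% of the transcript), a replicate block and 1 library left out at a time.

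Replicate numbers showed no clear pairing of RCF with control libraries of the same strain and sex. Of 20 same-numbered pairs, 3 had a correlation of deviations over 0.1, and the range was -0.372 to 0.294. Whether same-numbered libraries share a litter or batch cannot be told from this. Between libraries of a group, chi-square over its degrees of freedom was 5.51 to 141, where sampling noise alone gives about 1, so none was counted as a repeat of another.

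The genes and lists were chosen with earlier results of these data known. Named genes were every called gene, the genes of smallest p in each direction (4 for RCF, 6 for strain and sex), the stalk, X-linked and paralogous genes, the 5 highest and 5 lowest per kilobase and, of each related list, at most 6 called genes. Pseudogenes and genes named for a motif window were chosen after their values were seen. Values of 2 of the tested genes and of 1 related gene are not reported here by name, though the counts and medians include them.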

Additional observations from a re-analysis of the deposited data

Results flagged for a closer look

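Within each group of 5 libraries, the share of counts and the CPM of 17 genes (the 10 called between strains in control mice and Rpl14, Rpl22, Rpl8, Rplp1, Rplp2, Rps27 and Rps4x) were searched for a library whose gap to its nearest neighbour, divided by the range of the group, was above 0.71. Of 144 such sets of 5 values, 7 held one, where chance gives about 7.2. In C57 RCF female replicate 4, the library highest in hindbrain markers, Rpl22 was at 85.51 CPM and Rplp0 at 156.5 CPM, both the highest of the group, and Rps15a was at 102.2 CPM, the lowest. Rpl5 was at 56.12 CPM in C57 RCF female replicate 1, the lowest of its group, and at 66.89 CPM in DBA control female replicate 5, the highest of its group. Rpl29 was at 28.08 CPM in DBA RCF male replicate 5 and Rplp1 at 169.0 CPM in C57 control female replicate 4, each above the other 4 libraries of its group.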

How the results depend on the processing

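For the named genes, the alternatives other than leaving out 1 library kept direction and side of the threshold in 1156 of the values, ended a call in 20, made one in 11 and turned the direction in 22; leaving out 1 library did so in 2068, 43, 5 and 34. DESeq2 called 1 gene each for RCF in C57 females, DBA females (Rpl5) and the mean of the 4 strata (Rpl5), and the cause was not tested. In females against males of control mice 0 to 1 genes were called with 1 library left out. Between strains, 9 to 15 genes were called in control mice and 18 to 23 in RCF mice with 1 library left out, and 9 to 11 and 16 to 30 under the other alternatives. The shares of all genes called in those fits are not given here. The replicate block called 0 genes in each RCF and sex comparison, 10 between strains in control mice and 22 in RCF mice, where Rpl13a lost its call (adjusted p = 0.0620) and Rpl23a gained one (adjusted p = 0.0364); no other call changed under the block. With library totals in place of TMM factors Rpl5 lost its call in control mice and Rpl27, Rpl7a, Rps12, Rps3, Rps6 and Rps9 in RCF mice. With no filter Rpl5, and in RCF mice Rpl24, Rpl27, Rpl7a, Rps12, Rps27 and Rps3, lost theirs. Rpl5 also lost its call in control mice with the compared libraries alone (adjusted p = 0.148), without the 4 libraries that stood apart (0.0527) and without 6 (0.0904). Without 6 libraries Rpl24 and Rpl7a lost theirs in RCF mice. Rpl23a was called in RCF mice with library totals, with the compared libraries alone, with limma voom (adjusted p = 0.0494) and without 6 libraries, Rpl11 in RCF mice without 6, Rps15 in control mice without 4 and without 6, and Rps20 without 4. Leaving out 4 or 6 libraries was chosen after the data were seen.

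The reversals were in log2 fold changes near 0 of genes that were not called. In DBA males Rpl27a became -0.0050 with RLE factors, -0.013 with library totals, -0.0050 with DESeq2, -0.0027 with same-named and -0.00044 with all near-identical pseudogenes added, and -0.0065 without the 4 libraries that stood apart. Rpl28 became -0.0063, -0.012, -0.0062, -0.0043, -0.0023 and -0.0080 in the same order, -0.00049 with no filter and -0.00020 with the compared libraries alone. Rplp0 in C57 females became -0.0038 with library totals and -5.1e-05 without 6 libraries, and Rpl10a in the mean became -0.00077 without the 4 libraries. Rpl10 between strains in RCF mice became -0.0022 with no filter, -0.0021 with the compared libraries alone, -0.0029 with same-named pseudogenes added -0.031 without the 4 libraries and -0.0064 without 6. With 1 library left out the ranges were -0.010 to 0.067 for Rplp0, -0.060 to 0.056 for Rpl27a, -0.034 to 0.048 for Rpl28, -0.023 to 0.10 for Rpl37a, -0.0070 to 0.092 for Rps16 and -0.0060 to 0.021 for Rpl10a, and for sex in control mice -0.11 to 0.019 for Rpl39. It was -0.066 to 0.00037 for Rpl34 for sex in RCF mice, and -0.035 to 0.023 for Rpl10 between strains in RCF mice. Precision was limited by the spread between libraries: the median SE of the log2 fold change for RCF was 0.0864 for these genes and 0.18 for all genes.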
